A study of Mus musculus with 3 samples.

Results

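Osteoclasts are the bone-resorbing cells of the monocyte lineage, and the measurements described here are of 155 cells with an osteoclast profile among 38722 cells of inflamed mouse knee synovium. A cell was taken as an osteoclast when it held at least 1 UMI (a unique molecular identifier, which counts 1 captured RNA molecule) of Acp5 and UMIs of at least 3 of 5 genes of fusion and maturation, Dcstamp, Ocstamp, Atp6v0d2, Oscar and Calcr. Only cells with at least 200 genes and at most 20% of UMIs from mitochondrial genes were considered. The animals were wild type female C57BL/6 mice aged 8 weeks, all with arthritis set off by collagen and antibody together (the C&AIA model). Each received 100 µg of type II collagen on day 0, 1 mg of an antibody cocktail against that collagen on day 21 and lipopolysaccharide on day 22. Synovium was taken at the effector phase, and tissue of 6 mice was pooled by 2 into 3 libraries, replicates 1, 2 and 3. There was 1 group and no untreated one, so each comparison is between cells of the same libraries, and none is between arthritic and healthy tissue. All p-values measure the spread between 3 libraries of 2 pooled mice each. Tissue was digested with collagenase before droplet capture, and the number of nuclei in a cell was not measured.

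Osteoclasts arise when monocyte-lineage cells receive the cytokine M-CSF (Csf1) through the receptor Csf1r and RANKL (Tnfsf11) through the receptor RANK (Tnfrsf11a). The signal raises the transcription factor Nfatc1, cells fuse with each other, and the fused cell seals off a patch of bone, acidifies it with a vacuolar proton pump and digests its collagen with the protease cathepsin K (Ctsk). In arthritic joints such cells are known at the border of synovium and bone, where they erode bone.

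Replicate 1 held 59 osteoclasts among 11919 cells, which is 0.495% with an exact binomial 95% interval of 0.377% to 0.638%. In replicate 2 there were 50 among 11561, or 0.432% (0.321% to 0.570%), and in replicate 3 there were 46 among 15242, or 0.302% (0.221% to 0.402%). The mean share was 0.410% ± 0.0986 (SD, n = 3), and the intervals cover counting error only. All 3 intervals overlap.

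Osteoclasts were deep cells. Their median UMI count was 20400, 22840 and 13924 in replicates 1, 2 and 3, against 7702.5, 7277 and 6343 in mononuclear phagocytes of the same libraries and 4884.5, 4692 and 5257 in all cells other than osteoclasts. A rule that asks for several genes finds deep cells more readily. When every cell was thinned to 2000 UMIs before the rule was applied, 33 cells met it. Only 3 of the 155 had a doublet score of 0.2 or more. The deposited cell names are running numbers, so barcodes shared between libraries could not be counted.

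The genes of the rule are given as a description, since they chose the cells. Acp5 encodes tartrate-resistant acid phosphatase, the classic stain of osteoclasts, and stood at 7556, 6586 and 8015 UMIs per 1000000 UMIs of the class (CPM). The V-ATPase subunit gene Atp6v0d2 averaged 830 ± 44.2 CPM, and the fusion genes Ocstamp and Dcstamp averaged 252 ± 22.4 and 187 ± 48.1 CPM (SD, n = 3 libraries). Atp6v0d2 was seen in all 155 cells, Ocstamp in 151 and Dcstamp in 142. Oscar, a receptor for collagen, was seen in 75 cells. Calcr, the calcitonin receptor known from mature osteoclasts, was seen in 2 cells and stood at 0.680 and 2.76 CPM in replicates 1 and 3 and at 0 in replicate 2. Atp6v0d2, Ocstamp, Dcstamp and Oscar thus carried the rule.

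Levels changed in steps on both sides of the threshold. Among Acp5-positive cells there were 11723 with 0 of the 5 genes, 982 with 1, 148 with 2, 97 with exactly 3 and 58 with 4 or 5. Ctsk averaged 148, 231, 1585, 4124 and 9929.7 CPM along that order. The gelatinase gene Mmp9 averaged 70.9, 81.9, 673, 2103 and 5703 CPM. Nfatc1 averaged 48.6, 79.8, 351, 529 and 496 CPM. Mean levels of Ctsk and Mmp9 were higher at each further step, while that of Nfatc1 was close to its highest once 3 genes were seen. The 97 cells just inside the rule held Ctsk at 4124 ± 759 CPM, and the 148 just outside held it at 1585 ± 108 CPM (SD, n = 3). Lyz2, which macrophages express, averaged 4158, 5473, 3384, 1174 and 821 CPM along the same order, so it did not fall at every step. Its SD was 807 CPM in cells with 0 of the genes and 233 CPM in cells with 4 or 5. The cells outside the rule were of any type that held an Acp5 UMI.

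**Figure D1:**
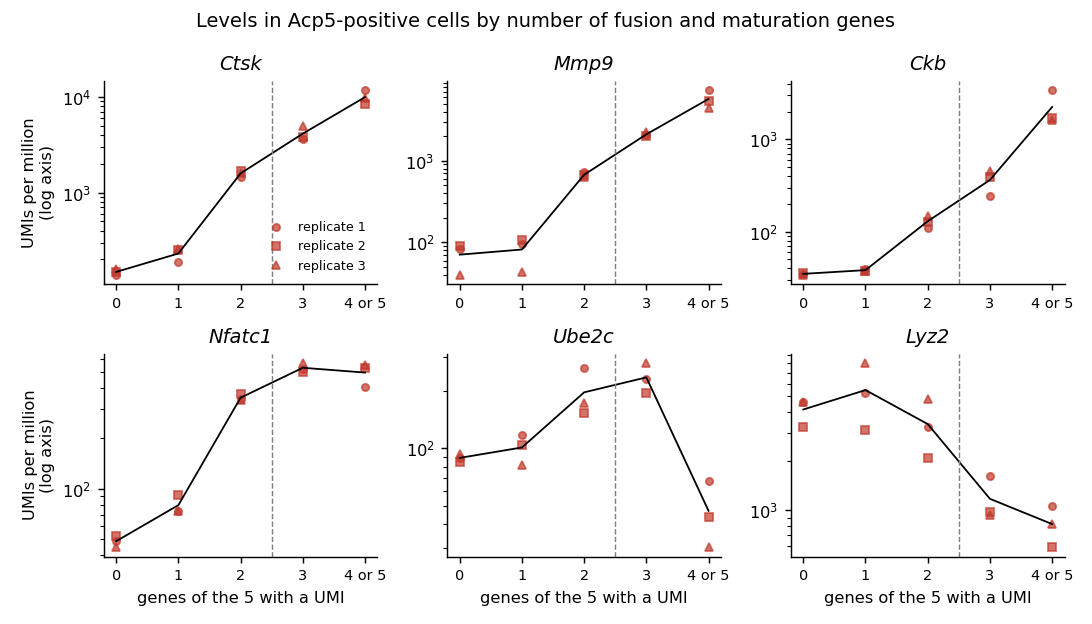
Levels of 6 genes in CPM on log axes, in Acp5-positive cells grouped by how many of the 5 fusion and maturation genes had a UMI. Points are the 3 libraries, lines join their means, and the dashed line marks the threshold of the rule, right of which Ctsk averaged 4124 and 9929.7 CPM.

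The label was set beside 10 osteoclast genes that the rule did not use. The comparator was 6806 mononuclear phagocytes. These cells had a UMI of Csf1r, UMIs of at least 3 of 8 phagocyte markers (among them Adgre1, Fcgr1, C1qa and Mrc1), none of the 5 fusion and maturation genes and none of Cxcr2, Cd3e, Cd79a, Cdh5 and Pdgfrb, which mark other cell types. UMIs were summed per library and class and compared with edgeR's quasi-likelihood test with the library as a block. Calls needed a change of 2-fold or more, that is 1 on the log2 scale, and a Benjamini-Hochberg adjusted p below 0.05. Of 12101 genes tested outside both rules, 1316 were called higher (10.9%) and 2000 lower (16.5%), 27.4% in all. Of the 10 osteoclast genes, 9 were called higher. The one that was not was Tnfrsf11a. Osteoclasts held at least 3 of the 5 fusion and maturation genes and the phagocytes none. Genes that accompany those 5 thus differ by that choice, so the 9 calls describe the class and are no independent test of the label.

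Ctsk stood at 6539.6, 5748 and 6504 CPM in osteoclasts, against 49.6, 49.03 and 63.2 CPM in phagocytes, a log2 fold change of 6.92 ± 0.10 (SE). Mmp9, whose product degrades denatured collagen, stood at 3969, 3475 and 2918 CPM in osteoclasts, against 43.1, 44.2 and 26.0 CPM in phagocytes (log2 fold change 6.60 ± 0.10). The classes were far apart in every library. Carbonic anhydrase II (Car2), which supplies protons to the pump, stood at 263, 212 and 152 CPM in osteoclasts, against 2.15, 2.72 and 1.21 CPM in phagocytes (6.79 ± 0.16). The sodium-proton exchanger gene Slc9b2 stood at 211, 222 and 215 CPM in osteoclasts, against 2.59, 1.68 and 2.29 CPM in phagocytes (6.65 ± 0.15). For these 4 genes the lowest osteoclast library was above the highest phagocyte library by a wide margin.

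Nfatc1 stood at 481, 512 and 561 CPM in osteoclasts, against 56.0, 70.9 and 54.8 CPM in phagocytes (log2 fold change 3.16 ± 0.10). Ckb, the brain-type creatine kinase, which regenerates ATP, stood at 1389.9, 948 and 830.1 CPM in osteoclasts, against 29.9, 32.98 and 32.5 CPM in phagocytes (5.09 ± 0.12). Replicate 1 was the highest osteoclast library for Ckb, and its phagocyte values were level. Itgb3, a chain of the vitronectin receptor that anchors osteoclasts to bone, stood at 57.1, 82.5 and 37.3 CPM in osteoclasts, against 3.74, 4.15 and 3.37 CPM in phagocytes (3.997 ± 0.22). Tcirg1, the pump's osteoclast-type a3 subunit, stood at 488, 459.8 and 475 CPM in osteoclasts, against 126, 120.4 and 149 CPM in phagocytes (1.92 ± 0.09), so phagocytes carried it too. Siglec15, a sialic acid receptor with a role in fusion, was rare at 7.48, 3.89 and 8.29 CPM in osteoclasts and at 0.110, 0.0799 and 0.0832 CPM in phagocytes (6.08 ± 0.75).

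**Figure D2:**
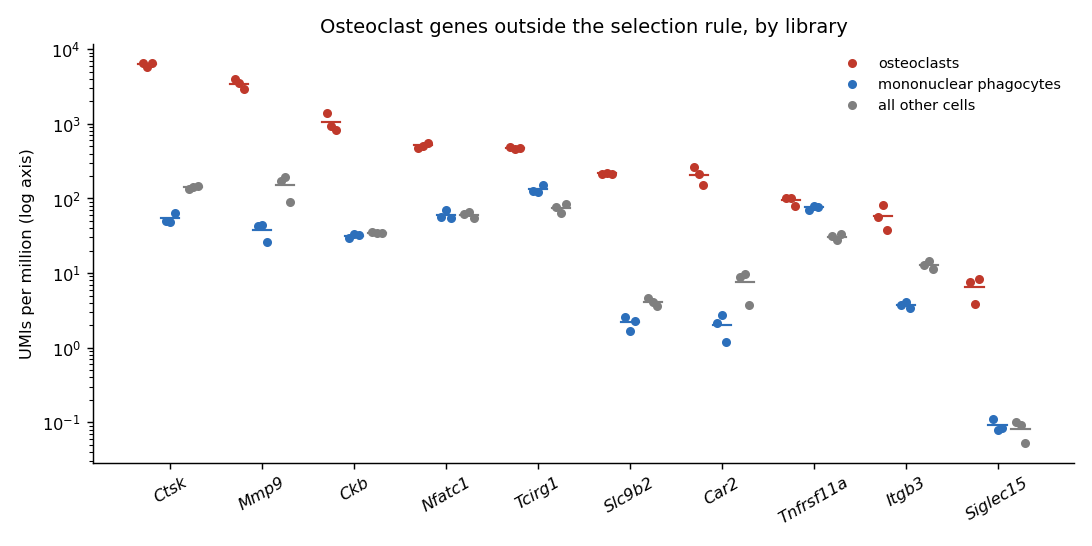
Levels in CPM, on a log axis, of 10 osteoclast genes that played no part in choosing the cells, in osteoclasts, mononuclear phagocytes and all other cells. Points are the 3 libraries and short lines their means, and for every gene except Tnfrsf11a the osteoclast points lie well above both other classes (Ctsk 6264 CPM on average, against 53.9 CPM in phagocytes).

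At a fixed depth of 2000 UMIs per cell, Ctsk had a UMI in 147 of 154 osteoclasts (95.5%, interval 90.9% to 98.2%), against 610 of 6578 phagocytes (9.27%). T cells, taken as cells with Cd3e and with Cd3d or Cd3g, should lack the gene and had a Ctsk UMI in 72 of 756 cells (9.52%, 7.53% to 11.8%). The share in phagocytes was thus close to that in T cells, and the source of Ctsk UMIs in either was not tested. Without thinning the shares were 99.4% of osteoclasts at a median of 18484 UMIs, 25.8% of phagocytes at 6917 UMIs and 24.0% of T cells at 5331 UMIs.

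Of the receptors at the top of the pathway, RANK differed little between osteoclasts and phagocytes. Tnfrsf11a (RANK) stood at 102, 101 and 80.1 CPM in osteoclasts, against 70.5, 80.3 and 77.8 CPM in phagocytes. It was higher in all 3 libraries, but the log2 fold change of 0.39 ± 0.12 was under the threshold (edgeR, Benjamini-Hochberg adjusted p = 0.00661). Csf1r, which chose the phagocytes and so is described only, stood at 549, 512 and 684 CPM in osteoclasts and 508, 505 and 503 CPM in phagocytes. Of 17 tested genes of RANK and co-stimulatory receptor signalling, 1 was called higher and 8 lower, with a median log2 fold change of -0.90 against -0.08 over all genes. The 1 that rose was Src, the kinase needed for the ruffled border, at 165 ± 17.1 CPM in osteoclasts and 16.1 ± 2.58 CPM in phagocytes (log2 fold change 3.41 ± 0.13). Among those that fell were the adaptor gene Vav3 (15.1 ± 3.47 CPM in osteoclasts, 80.5 ± 13.5 CPM in phagocytes) and the receptor gene Trem2 (79.8 ± 29.6 CPM in osteoclasts, 327 ± 86.0 CPM in phagocytes). Traf6, the adaptor that RANK recruits, was not called, with 20.9 ± 0.782 CPM in osteoclasts and 23.2 ± 1.27 CPM in phagocytes.

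The acid-secreting machinery stood out among the lists. Of 21 tested genes of the proton pump and acid secretion, 16 were called higher and 1 lower, with a median log2 fold change of 1.62. Genes for both sectors of the pump rose, the membrane one (Tcirg1, Atp6v0b, Atp6v0e) and the catalytic one, for example Atp6v1c1 with 230.2 ± 27.4 CPM in osteoclasts and 55.1 ± 5.38 CPM in phagocytes. So did the transporters that keep its charge and pH in balance, the chloride-proton exchanger gene Clcn7 (111 ± 15.1 CPM in osteoclasts, 48.8 ± 1.48 CPM in phagocytes) and the anion exchanger gene Slc4a2 (155 ± 9.43 CPM in osteoclasts, 23.8 ± 2.64 CPM in phagocytes). The 1 gene that fell was Atp6v0a1, which encodes another form of the a subunit, at 7.48, 7.002 and 5.52 CPM in osteoclasts, against 61.8, 69.8 and 62.4 CPM in phagocytes (log2 fold change -3.18 ± 0.21). The forms a3 (Tcirg1) and a1 thus differed in direction in every library.

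Matrix-degrading enzymes did not move as a group. Of 17 tested enzymes and inhibitors, 3 were called higher, 5 lower and 9 neither, with a median log2 fold change of -0.25. The 3 were Ctsk, Mmp9 and Mmp14, a membrane-bound collagenase, which stood at 724 ± 29.6 CPM in osteoclasts and 292 ± 54.4 CPM in phagocytes. The 5 were the lysosomal proteases Ctsb, Ctsd, Ctsl, Ctss and Lgmn. Ctss, which works in antigen presentation, stood at 615, 365 and 425 CPM in osteoclasts, against 3222, 2717 and 3774 CPM in phagocytes (log2 fold change -2.73 ± 0.10). The cathepsin genes therefore differed in direction, with Ctsk higher and Ctss lower in every library. Mmp13, a collagenase known from fibroblasts and chondrocytes, was at 20.8 ± 10.9 CPM in osteoclasts and 23.2 ± 7.94 CPM in phagocytes and was not called.

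Ctsk and Acp5 also moved together from cell to cell. In 154 osteoclasts thinned to 2000 UMIs, Spearman's rho between their UMIs was 0.70 (0.76, 0.71 and 0.56 within replicates 1, 2 and 3). Values of 1 cell share its RNA content and capture, and Acp5 was part of the rule, so this is a description. The rank correlation with Nfatc1 was -0.07 for Acp5 and -0.15 for Ctsk over the same cells. As both genes are known targets of Nfatc1, the start regions of both were searched on either strand for the NFAT core TGGAAA, the AP-1 motif TGANTCA and the E-box TCATGTG of the Mitf family. The regions, from 250 bases before to 50 after each annotated start, came from RefSeq on build GRCm38.p6, while the submitters' processing notes name GRCm39 for the data. The first region lies at chr3:95498960-95499229 on the plus strand, and the second, at the downstream one of 3 annotated starts of Acp5, at chr9:22130579-22130848 on the minus strand. Both are shown 5′ to 3′ up to base 20 after the start, with motif matches in capitals.
Ctsk: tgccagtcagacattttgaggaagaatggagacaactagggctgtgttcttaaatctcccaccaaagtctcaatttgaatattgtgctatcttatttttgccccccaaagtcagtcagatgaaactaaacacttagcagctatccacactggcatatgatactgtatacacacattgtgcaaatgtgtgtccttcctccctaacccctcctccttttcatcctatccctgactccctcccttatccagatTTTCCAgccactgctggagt
Acp5: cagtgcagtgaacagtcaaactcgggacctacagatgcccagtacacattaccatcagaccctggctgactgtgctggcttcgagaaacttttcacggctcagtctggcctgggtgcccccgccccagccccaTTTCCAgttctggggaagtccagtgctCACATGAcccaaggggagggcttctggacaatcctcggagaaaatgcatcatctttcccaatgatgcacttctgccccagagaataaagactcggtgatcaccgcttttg
The regions at the other 2 starts of Acp5 held none of the motifs up to that base. Each region shown held the NFAT core on the reverse strand, and that of Acp5 also held the E-box on the reverse strand. The NFAT core was in 3 of 13 regions of the 8 markers (of 16) that the table held, or 23.1%, and in 21.4% of all 32851 regions, so its presence is common. The E-box was in 3.77% of all regions and the AP-1 motif in 7.81% of all regions and in none of the 13. A match describes letters and not binding.

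Genes of cell fusion and of the sealing zone were mixed. Of 15 tested fusion genes, 6 were called higher and 4 lower (median log2 fold change 0.01), with 3 higher after thinning. Cd200, a surface protein that engages a receptor on myeloid cells, stood at 173, 209 and 148 CPM in osteoclasts, against 3.41, 2.95 and 2.79 CPM in phagocytes (log2 fold change 5.88 ± 0.14). Its receptor gene Cd200r1 went the other way, with 4.37 ± 2.63 CPM in osteoclasts and 17.1 ± 2.56 CPM in phagocytes (-1.99 ± 0.36, adjusted p = 0.0959 with cells thinned). Mst1r, a receptor tyrosine kinase also named RON, was among the 6, with 37.6 ± 12.3 CPM in osteoclasts and 0.757 ± 0.182 CPM in phagocytes. Of 18 genes of podosomes and the sealing zone, the actin structures that grip bone, 6 were called higher and 1 lower (median 0.27). The unconventional myosin gene Myo10 was among the 6, with 153 ± 28.1 CPM in osteoclasts and 17.2 ± 2.97 CPM in phagocytes. The 1 lower gene was the adhesion kinase Ptk2b (Pyk2), with 43.2 ± 7.88 CPM in osteoclasts and 96.7 ± 5.91 CPM in phagocytes (-1.08 ± 0.13).

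Among 22 osteoclast transcription factors 7 were called higher and 3 lower (median log2 fold change -0.10). Beside Nfatc1, the AP-1 family gene Jdp2 rose, with 703, 705 and 555 CPM in osteoclasts, against 66.1, 60.2 and 55.1 CPM in phagocytes (3.49 ± 0.09). Ppargc1b, a co-activator of mitochondrial biogenesis, stood at 130.4 ± 13.05 CPM in osteoclasts and 12.5 ± 0.872 CPM in phagocytes, and Prdm1 (Blimp1), known to silence repressors of osteoclast formation, at 78.2 ± 5.45 CPM in osteoclasts and 21.4 ± 2.68 CPM in phagocytes. The 3 that fell were Fos, Fosl1 and Jun, of which Jun stood at 139 ± 7.19 CPM in osteoclasts and 543 ± 23.3 CPM in phagocytes (-1.90 ± 0.09). Fos and Jun also belong to the list of genes that tissue digestion induces, of which 9 of 12 fell. Mitf and Spi1, which myeloid cells share, were not called.

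Repressors of osteoclast differentiation were low. Of 11 tested, 9 were called lower and the remaining 2 were not called, with a median log2 fold change of -2.01. Irf8 stood at 12.9, 13.2 and 20.7 CPM in osteoclasts, against 123, 114 and 154 CPM in phagocytes (-3.04 ± 0.16). Klf4 stood at 15.0, 10.9 and 26.2 CPM in osteoclasts, against 153, 119 and 156 CPM in phagocytes (-3.08 ± 0.17). Bcl6 was at 13.2 ± 2.77 CPM in osteoclasts and 71.9 ± 7.14 CPM in phagocytes.

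Mitochondrial energy genes were mostly higher in osteoclasts, while most glycolysis genes were not called. Of 14 mitochondrial energy genes 13 were called higher and 1, Cox6a2, was not called, with a median log2 fold change of 1.76. Cytochrome c (Cycs) stood at 822 ± 69.5 CPM in osteoclasts and 177 ± 12.6 CPM in phagocytes, and the ATP synthase gene Atp5b at 1017 ± 27.4 CPM in osteoclasts and 275 ± 1.22 CPM in phagocytes. Of 12 glycolysis genes 4 were called lower and 8 were not called (median -0.31), where 16.5% of all tested genes were called lower. Over the settings tried, 2 to 4 were lower and 0 to 1 higher. The lactate exporter Slc16a3 was among the 4 (47.7 ± 7.91 CPM in osteoclasts, 193 ± 45.8 CPM in phagocytes). Iron genes were mixed, 2 higher and 4 lower of 10. The transferrin receptor gene Tfrc, which brings iron into the cell, stood at 67.3, 75.5 and 51.1 CPM in osteoclasts, against 10.1, 8.15 and 8.23 CPM in phagocytes (2.93 ± 0.18). Hfe, which restrains that receptor, stood at 3.36 ± 1.15 CPM in osteoclasts and 37.0 ± 2.67 CPM in phagocytes (-3.50 ± 0.30).

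Of all genes tested against phagocytes, 10.9% were called higher and 16.5% lower. Calcium signalling genes had 6 lower and 6 not called of 12 (median log2 fold change -0.99). Among the 6 lower was the calcium release channel gene Itpr1 (6.66 ± 2.37 CPM in osteoclasts, 39.2 ± 7.38 CPM in phagocytes). Genes of lysosomes and vesicle traffic had 1 higher and 5 lower of 12 (median 0.03). The 1 was Snx10, a sorting nexin whose loss is known to cause osteopetrosis, at 196 ± 17.6 CPM in osteoclasts and 80.4 ± 4.53 CPM in phagocytes, and Rab27a was among the 5, at 3.03 ± 1.62 CPM in osteoclasts and 22.1 ± 7.47 CPM in phagocytes. Of 12 coupling factors, by which osteoclasts are known to signal to bone-forming cells, 1 was called higher and 3 lower (median -0.30). The 1 was Pdgfb, at 99.2 ± 10.6 CPM in osteoclasts and 28.9 ± 1.56 CPM in phagocytes (1.84 ± 0.12). Tgfb1 was lower, at 16.2 ± 1.83 CPM in osteoclasts and 108 ± 4.87 CPM in phagocytes (-2.68 ± 0.16). The counts of coupling factors called were not far from the shares over all genes.

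Inflammatory and antigen-presenting genes were lower in osteoclasts than in phagocytes. The phagocytes were chosen by macrophage and monocyte markers, so genes that accompany those markers are high in them by that choice. Of 10 genes of MHC class II and co-stimulation 9 were called lower and Cd40 was not called (median log2 fold change -3.27), with Cd86 at 9.26 ± 3.70 CPM in osteoclasts and 125 ± 8.84 CPM in phagocytes. Of 12 scavenger and macrophage genes outside the rules 11 were called lower and Cd68 was not called (median -3.19, or -2.96 with Cd163 at its bound). Cd163 had 0 UMIs in osteoclasts and 338 in phagocytes, which is at least 7.16-fold lower with 3 counts over the group taken as the floor. Lyz2 stood at 1419, 806 and 892 CPM in osteoclasts, against 10559, 9652 and 10772 CPM in phagocytes. Interferon-stimulated genes had 10 of 13 lower and 3 not called (median -1.67; 6 lower without replicate 1, 6 without replicate 2 and 6 by DESeq2), among them Ifi27l2a with 56.3 ± 20.1 CPM in osteoclasts and 359 ± 62.5 CPM in phagocytes. Chemoattractant receptors had 7 of 10 lower and 3 not called (median -1.76), and cytokine receptors 7 of 15 lower and 8 not called (median -0.87). Il10ra, a chain of the interleukin-10 receptor, stood at 9.12 ± 3.43 CPM in osteoclasts and 83.4 ± 9.91 CPM in phagocytes.

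Of 16 inflammatory cytokines and chemokines 11 were called lower and 1 higher (median log2 fold change -1.38). Tnf stood at 10.9, 10.1 and 5.52 CPM in osteoclasts, against 68.0, 69.4 and 67.9 CPM in phagocytes (-2.80 ± 0.20). Il1b stood at 222, 179.7 and 224 CPM in osteoclasts, against 541, 473 and 427 CPM in phagocytes (-1.16 ± 0.09). Both were low in every osteoclast library. Il6 rested on 4, 0 and 4 UMIs in osteoclasts, with 2.72, 0 and 5.52 CPM in osteoclasts and 6.77, 8.23 and 5.45 CPM in phagocytes, was lower in 2 of 3 libraries (-1.50 ± 0.56, edgeR adjusted p = 0.0254) and lost its call under 8 alternatives (adjusted p up to 0.376, without replicate 2). The 1 that rose was Ccl9, a chemokine that draws myeloid cells, at 886, 693 and 1097 CPM in osteoclasts, against 467, 386 and 441 CPM in phagocytes (1.08 ± 0.09), which fell below the 2-fold threshold under 5 alternatives, with 0.67 after thinning.

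**Figure D3:**
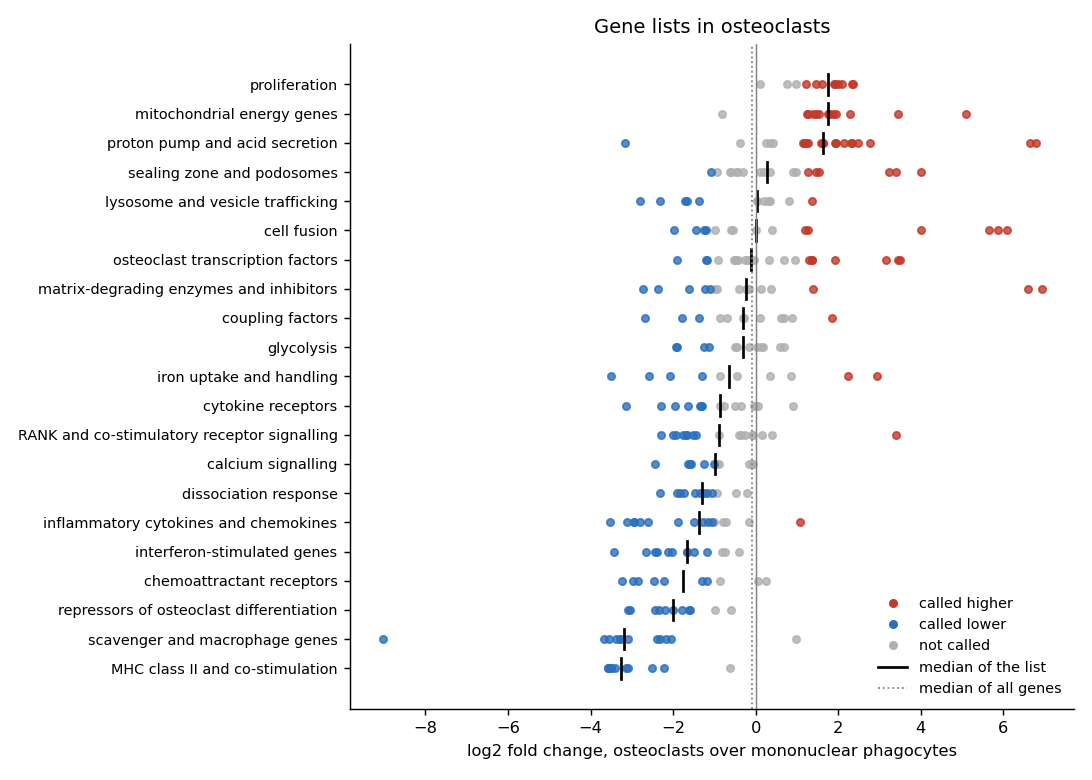
Log2 fold changes, osteoclasts over mononuclear phagocytes, of the tested genes of 21 lists, sorted by the list's median (black bars). Red and blue points were called higher and lower, and grey points were not called; the proton pump (median 1.62) and mitochondrial energy genes (1.76) lie right of all genes, and MHC class II genes (-3.27) lie left, with the point at -9.02 being Cd163, which had 0 UMIs in osteoclasts.

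Outside the lists, the largest difference was in Mt3, a metallothionein that binds zinc and copper. Mt3 stood at 243, 169.6 and 169.9 CPM in osteoclasts, against 0.220, 0.399 and 0.0416 CPM in phagocytes (log2 fold change 10.00 ± 0.22). Serpind1, which encodes the clotting inhibitor heparin cofactor II, stood at 75.5, 77.0 and 93.9 CPM in osteoclasts, against 0.495, 0.719 and 0.333 CPM in phagocytes (7.43 ± 0.28). Both genes were high in the summed UMIs of every osteoclast library and near 0 in the phagocytes. Mt3 had a UMI in 56 of 155 osteoclasts (36.1%) and in 10 of 6806 phagocytes, so a minority of osteoclasts carried its level. Rufy4 (150.1 ± 4.29 CPM in osteoclasts, 1.35 ± 0.335 CPM in phagocytes), the cytochrome P450 gene Cyp2s1 (125 ± 22.3 CPM in osteoclasts, 1.24 ± 0.719 CPM in phagocytes) and Adck3 (421 ± 45.1 CPM in osteoclasts, 7.80 ± 0.899 CPM in phagocytes) rose as well. So did Scin, an actin-severing protein (36.2 ± 1.80 CPM in osteoclasts, 0.703 ± 0.446 CPM in phagocytes), Dusp9 (41.6 ± 15.9 CPM in osteoclasts, 0.715 ± 0.161 CPM in phagocytes), Slc45a3 (17.3 ± 2.87 CPM in osteoclasts, 0.123 ± 0.0426 CPM in phagocytes) and the keratin gene Krt7 (12.95 ± 4.47 CPM in osteoclasts, 0.220 ± 0.227 CPM in phagocytes). The transcript 2210008F06Rik had 30 UMIs in osteoclasts and 2 in phagocytes, a ratio of 236 with a counting interval of 59.9 to 2038.

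Among genes with more than 3 UMIs in osteoclasts, Pou2f2 had the lowest fold change, at 1.36, 3.11 and 1.38 CPM in osteoclasts, against 58.9, 88.9 and 68.0 CPM in phagocytes (log2 fold change -5.10 ± 0.28). Aoah, which inactivates bacterial lipopolysaccharide, stood at 2.15 ± 0.719 CPM in osteoclasts and 64.4 ± 5.94 CPM in phagocytes. Adap2 (3.58 ± 0.712 CPM in osteoclasts, 102 ± 18.8 CPM in phagocytes), the inflammasome gene Nlrp1b (1.24 ± 1.17 CPM in osteoclasts, 36.3 ± 6.52 CPM in phagocytes) and the serotonin receptor gene Htr7 (0.972 ± 0.847 CPM in osteoclasts, 33.1 ± 4.01 CPM in phagocytes) fell as well. Gm15987, Kcnk13, Rnase6, Clec10a and Fcrls had 1 or 2 UMIs each in osteoclasts, and their ratios lay between 0.0149 (Kcnk13, counting interval 0.00180 to 0.0538) and 0.0425 (Clec10a, 0.00514 to 0.154). Of 60 named genes that were called, 59 had their direction in all 3 libraries, and their edgeR Benjamini-Hochberg adjusted p-values lay between 2.45e-29 and 0.0254.

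Against all 38567 other cells of the synovium, 16272 genes were tested, and 1308 were called higher (8.04%) and 3307 lower (20.3%), 28.4% in all. All 10 osteoclast genes outside the rule were called higher. Tnfrsf11a was among them, with 94.4 ± 12.4 CPM in osteoclasts and 31.2, 27.5 and 33.1 CPM in the other cells of replicates 1, 2 and 3 (log2 fold change 1.77 ± 0.13). Mt3, Serpind1, Cyp2s1, Slc45a3 and Slc9b2 had the 5 largest log2 fold changes under the naming rule, from 7.43 for Mt3 to 5.81 for Slc9b2. The proton pump list again had 16 higher and 1 lower of 21, and the mitochondrial energy list 13 higher and 1 lower of 14. Ibsp, which encodes bone sialoprotein of bone-forming cells, was lower, with 3.40, 0 and 0 CPM in osteoclasts and 76.1, 6.41 and 24.9 CPM in the other cells. Gjc1, Gimap1, Kcnk13 and Meox1, the other 4 lowest, had 1 or 2 UMIs each in osteoclasts.

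Tnfsf11 and Csf1, ligands of the pathway, had higher levels in other cells. Tnfsf11 (RANKL) stood at 2.72, 0.778 and 2.76 CPM in osteoclasts, 7 UMIs in all, against 2.92, 3.83 and 3.58 CPM in phagocytes, which was not called (log2 fold change -0.68 ± 0.59, edgeR adjusted p = 0.363). In the T cells defined above, 809 without thinning, it stood at 98.6 ± 25.7 CPM, and in 5779 cells with Pdgfra and Lum, a fibroblast profile, at 20.6 ± 4.71 CPM (SD, n = 3). T cells thus held the highest of these 4 levels. Csf1 was at 16.9 ± 5.94 CPM in osteoclasts, 56.3 ± 2.88 CPM in the Pdgfra and Lum cells and 52.1 ± 8.44 CPM in T cells. Il34, the second ligand of Csf1r, was at 10.2, 14.8 and 20.7 CPM in osteoclasts, against 3.19, 3.03 and 4.41 CPM in phagocytes, and at 18.2 ± 3.28 CPM in the Pdgfra and Lum cells. Tnfrsf11b, the decoy receptor for RANKL, was seen in osteoclasts with 12 UMIs in replicate 1, 1 in replicate 2 and 0 in replicate 3.

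Neutrophil and fibroblast markers were present in osteoclasts. Droplets can also hold RNA freed from broken cells, taken here to have the make-up of all kept cells of the library. Empty droplets were not used, so that make-up was not measured. Under it, if all S100a8 and S100a9 UMIs of osteoclasts were free RNA, such RNA made up at most 18.7%, 14.1% and 31.3% of their UMIs in replicates 1, 2 and 3. By the same reckoning it made up at most 17.3%, 16.7% and 22.8% in phagocytes. The limits below hold only under that make-up. The 8 neutrophil markers summed to 2757 to 4767 CPM in osteoclasts, 2045 to 5818 CPM in phagocytes and 9038 to 34493 CPM in all other cells, with none at 0 in osteoclasts. The 7 fibroblast markers summed to 4980, 6354 and 6704 CPM in osteoclasts, and the limit from free RNA was 4863, 3988 and 10053 CPM, so replicates 1 and 2 were above it and replicate 3 was below. Phagocytes held more, at 7609.8, 7525 and 10541 CPM. Endothelial, pericyte, T cell, B cell, mast cell and dendritic cell markers each summed to at most 57.6 CPM in osteoclasts in any library, with Cd79a, the dendritic cell markers Xcr1, Clec9a and Cd209a and the mast cell markers Cpa3, Mcpt4 and Fcer1a at 0. Osteoblast markers summed to at most 12.4 CPM, with Bglap and Bglap2 at 0, and chondrocyte, erythroid and plasmacytoid dendritic cell markers to at most 75.5, 94.1 and 227 CPM. The part of other cells in the results was not tested. Il1b, at 222, 179.7 and 224 CPM, was above its limit of 161, 118 and 218 CPM in every library, though only slightly in replicate 3. Tnf, at 10.9, 10.1 and 5.52 CPM, was below its limit of 12.2, 8.53 and 18.9 CPM in replicates 1 and 3 and above it in replicate 2. Ccl9 was far above its limit of 45.4, 22.4 and 71.5 CPM. A UMI of Cxcr2, Cd3e, Cd79a, Cdh5 or Pdgfrb was present in 74 osteoclasts, and with these left out 2707 genes were called against phagocytes, by the same thresholds.

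Osteoclasts varied widely among themselves. At 2000 UMIs per cell, the median osteoclast held 14 Acp5 UMIs (quartiles 9 and 21), 12 Ctsk UMIs (6 and 17) and 5.5 Mmp9 UMIs (1.25 and 13). Ctsk was at 0 in 7 cells and reached 62, and Ckb was at 0 in 70 of 154 cells and reached 18. Spearman's rho was 0.61 between Ctsk and Ckb, 0.56 between Ctsk and Mmp9 and 0.49 between Mmp9 and Ckb over 154 cells, as descriptions of cells that share libraries. Pairs with pump genes had lower values, 0.30 for Ctsk and Tcirg1, 0.26 for Mmp9 and Atp6v0d2 and 0.13 for Atp6v0d2 and Tcirg1.

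**Figure D4:**
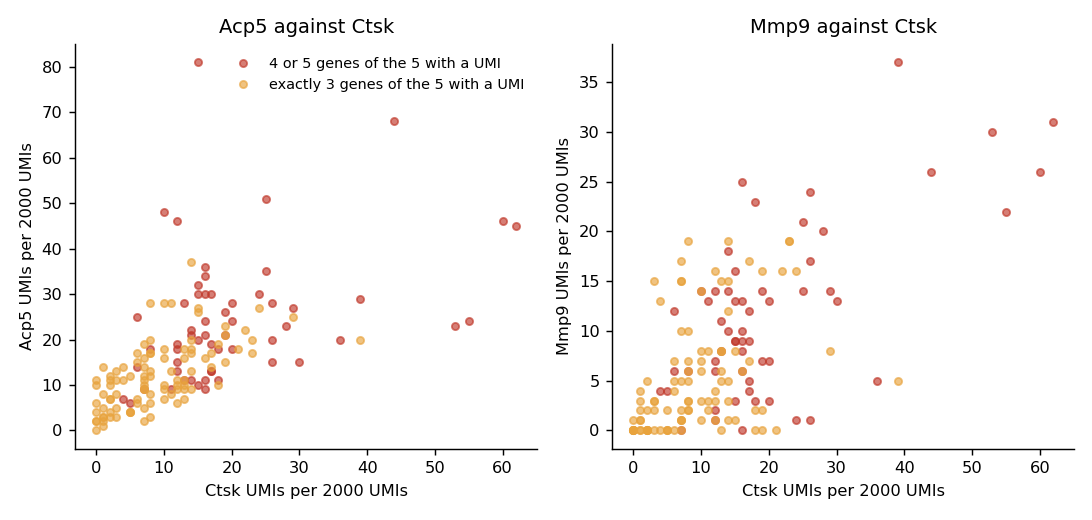
UMIs of Acp5 (left) and Mmp9 (right) against those of Ctsk in 154 osteoclasts thinned to 2000 UMIs each, where each point is a cell. Cells with 4 or 5 of the fusion and maturation genes reach higher counts (median 16 Ctsk UMIs, up to 62) than cells with exactly 3 (median 8, up to 39).

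Osteoclasts with 4 or 5 of the fusion and maturation genes were compared with those with exactly 3. The classes were cut on genes of the rule, so genes that accompany those differ by that choice. Their higher levels describe the split and are no separate support for the label. All 58 cells with 4 or 5 held Oscar, against 17 of the 97 with exactly 3, so the split was in effect one by Oscar. Median depth was 17412, 25182 and 15952 UMIs in cells with 4 or 5 and 23950, 22234.5 and 11593 UMIs in cells with exactly 3. Among 5505 genes tested, 80 rose (1.45%) and 62 fell (1.13%), 2.58% in all. With scaling by total UMIs, which moved the median of all genes by -0.12, the split was 57 higher and 104 lower. Without replicate 1, which held 24 of the 58 cells, 7 genes were called (5 higher and 2 lower).

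Ctsk, Mmp9 and Ckb were higher in cells with 4 or 5 genes. Ctsk stood at 11717, 8349 and 9723 CPM in cells with 4 or 5, against 3586, 3794 and 4992 CPM in cells with exactly 3 (log2 fold change 1.37 ± 0.13, edgeR adjusted p = 6.78e-05). Mmp9 stood at 7282, 5434 and 4392 CPM in cells with 4 or 5, against 2079, 2003 and 2226 CPM in cells with exactly 3 (1.52 ± 0.14). Ckb stood at 3402, 1687 and 1634 CPM in cells with 4 or 5, against 242, 394 and 453 CPM in cells with exactly 3 (2.69 ± 0.28). Each of these genes was higher in cells with 4 or 5 in every library. Mt3 was higher too, at 425 ± 138 CPM in cells with 4 or 5 and 62.9 ± 8.52 CPM in cells with exactly 3 (2.84 ± 0.22), as were Itgb3 (113 ± 27.1 CPM in cells with 4 or 5, 26.7 ± 19.3 CPM in cells with exactly 3), Cfap45, Fhl3 and St8sia6, the last 3 with log2 fold changes of 2.65, 2.52 and 2.45. Ctsk and Mmp9 were the 2 called of 15 matrix-degrading genes. Of the proton pump list, 2 of 19 were called higher (Clcn7 and Slc9b2) and 17 were not called, with a median log2 fold change of 0.85 against 0.00 over all genes. That count was 0 without replicate 1, 0 by DESeq2, 0 with scaling by total UMIs and 7 of 20 without replicate 3. Nfatc1 was level, at 496 ± 76.4 CPM in cells with 4 or 5 and 529 ± 34.2 CPM in cells with exactly 3 (log2 fold change 0.00 ± 0.13), and of 21 osteoclast transcription factors 0 were called by edgeR, with 6 at an unadjusted p under 0.05, or by DESeq2.

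Of the 62 genes that fell, 9 were on the proliferation list. Of its 11 tested, these 9 were called lower and 2 were not called, with a median log2 fold change of -1.78. Ube2c, a ubiquitin-conjugating enzyme of mitosis, stood at 67.4, 43.5 and 30.3 CPM in cells with 4 or 5, against 231, 195 and 280.1 CPM in cells with exactly 3 (-2.08 ± 0.23). Cenpf (-2.86), Spc24 (-2.27), Cks1b (-2.26) and Stmn1 (-2.08), all known from dividing cells, were the other 4 lowest. Without replicate 1, 0 of the 11 were called by edgeR, though all 11 had an unadjusted p under 0.05 and their median log2 fold change was -2.25; DESeq2 on all libraries called 4, and edgeR without replicate 2 called 4. The fibroblast markers summed to 3645, 8876.5 and 3670.5 CPM in cells with 4 or 5, against 5742, 4459 and 8128 CPM in cells with exactly 3, with no common direction.

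Compared with phagocytes, 9 of 12 proliferation genes were called higher in osteoclasts as a whole and 3 were not called (median log2 fold change 1.76). Compared with all other cells, 3 were called higher and 9 were not called (median 0.72, against -0.29 over all genes). Ube2c stood at 171, 129.9 and 200.3 CPM in osteoclasts, against 35.2, 33.6 and 31.4 CPM in phagocytes (2.36 ± 0.12). When the osteoclasts with 4 or 5 genes alone were set against phagocytes, edgeR called 0 of 12 proliferation genes, 4 had an unadjusted p under 0.05, and the median log2 fold change was 0.54.

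Cells were then split by proliferation genes. A cell was called cycling when at least 3 of 12 such genes had a UMI, which held for 30 of 59, 22 of 50 and 19 of 46 osteoclasts in replicates 1, 2 and 3 (50.8%, 44.0% and 41.3%). The same held for 10.3%, 9.31% and 7.52% of phagocytes and 14.5%, 14.7% and 12.7% of all other cells. At 2000 UMIs per cell the shares were 10.2%, 12.2% and 13.04% in osteoclasts, 6 cells each, against 1.70%, 1.83% and 1.90% in phagocytes and 4.73%, 4.64% and 4.91% in all other cells. After thinning the osteoclast shares were above the phagocyte ones in every library, though each rests on 6 cells and the interval in replicate 1 was 3.82% to 20.8%. Osteoclasts were chosen before thinning, by a rule that finds deep cells more readily, and cycling osteoclasts were deeper than the others. Thinning therefore did not make the choice of cells equal in depth, and the part of depth in these shares was not tested. Of the 71 cycling osteoclasts 17 had 4 or 5 fusion and maturation genes, against 41 of the 84 others. At the top of the range, 16 osteoclasts held 11 or 12 of the 12 genes.

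**Figure D5:**
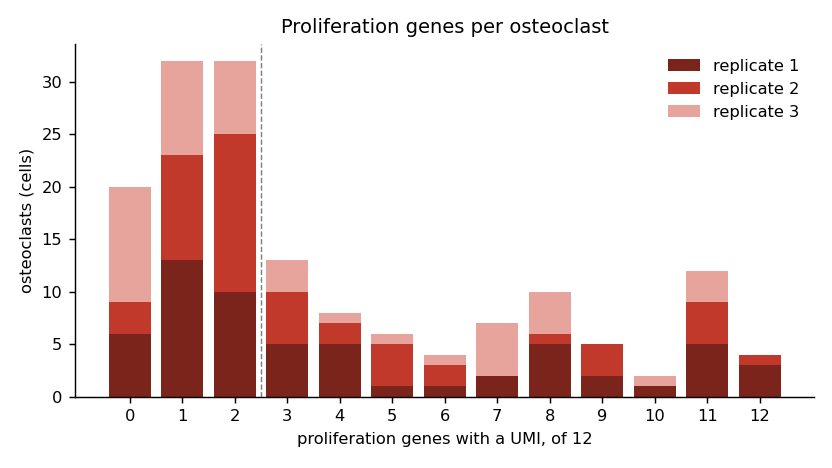
Number of osteoclasts (vertical axis) by how many of 12 proliferation genes had a UMI (horizontal axis), stacked by library. The dashed line marks the threshold of 3 genes for a cycling cell; 1 and 2 genes were the commonest counts (32 cells each), and 16 cells from all 3 libraries held 11 or 12.

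Mmp9 and Tcirg1 were lower in cycling osteoclasts than in the others. Among 5174 genes tested outside the 12 and the rule, 142 rose (2.74%) and 65 fell (1.26%), 4% in all. Mmp9 stood at 3226, 2022 and 1075 CPM in cycling cells, against 5517, 5805 and 4625 CPM in the others (log2 fold change -1.50 ± 0.19, edgeR adjusted p = 6.46e-05). Tcirg1 stood at 389.5, 328 and 293 CPM in cycling cells, against 694, 671 and 644 CPM in the others (-1.04 ± 0.14). Both genes were lower in cycling cells in every library. They were the 1 called of 15 matrix-degrading genes and the 1 called of 19 proton pump genes (list medians -0.45 and -0.65 on the log2 scale), and Tcirg1 was not called with scaling by total UMIs. Ckb (-1.68 ± 0.19), Itgb3 (-1.74 ± 0.23), Mst1r (-1.23 ± 0.27) and Mt3 (-3.05 ± 0.39) were lower too, as were Rab38, Cfap45, Kdm5b and Fhl3, with log2 fold changes between -2.88 and -1.99. Ctsk, at 4696 ± 1121 CPM in cycling cells and 8396 ± 576 CPM in the others, was lower in every library but under the threshold (-0.91 ± 0.15, adjusted p = 0.000868). Nfatc1 was level again, at 527 ± 45.7 CPM in cycling cells and 507 ± 40.1 CPM in the others.

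The genes highest in cycling cells were other genes of mitosis and DNA replication, which accompany the 12 that defined the class. Plk1, a kinase of mitosis, had 134 UMIs in cycling cells and 1 in the others, a ratio of 84.6 with a counting interval of 14.9 to 3366. Cdca8 stood at 63.4 ± 18.2 CPM in cycling cells and 2.77 ± 3.21 CPM in the others, and 2810417H13Rik at 101 ± 8.59 CPM in cycling cells and 5.20 ± 0.949 CPM in the others. Prc1 and Knstrn had 89 and 81 UMIs in cycling cells and 2 and 3 in the others. Cycling cells were deeper, with median counts of 28268, 29884.5 and 17382 UMIs against 14671, 16089 and 10828 UMIs in the others. The 7 fibroblast markers also moved with the class and summed to 5538, 7670 and 8864 CPM in cycling cells, against 3819, 4243 and 4705 CPM in the others, with none at 0. Their part in the result was not tested. Cd248, a stromal gene named after its value was seen, stood at 38.2, 139 and 63.2 CPM in cycling cells and at 10.5, 12.2 and 29.3 CPM in the others. Without replicate 3, 336 genes were called between cycling and other osteoclasts.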

How the data were processed

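Droplet single-cell RNA libraries (DNBelab C kit) of 3 pooled synovium samples were deposited as matrices of UMI counts per gene and cell, which per the file headers were written by PISA 1.0 and which are whole numbers without normalization. Per the submitters' processing notes, Seurat 3.0.2, R 3.6 and the build GRCm39 (mm39) were used; which aligner and which annotation served is not given in the sources used here. The libraries held 101384374, 99782608 and 116125707 UMIs over 11939, 11602 and 15263 barcodes, and 82 barcodes failed the filter. The labels state 11111, 10668 and 14363 cells.

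UMIs were summed per library and class (at least 10 cells per sum) and tested two-sided with the quasi-likelihood test of edgeR 4.0.16 (R 4.3.3) after filterByExpr and TMM scaling, with the library as a block, with p-values adjusted over all genes tested. The block was used because both sums of a library come from the same mice. Genes used to choose a class were left out of counts. CPM divide by the class's whole UMI total, and fold changes are TMM-scaled. Scrublet (scanpy 1.11.5, 6% doublets assumed) scored doublets, which were kept in the main results. The test was checked on simulated data. Alternatives were DESeq2 1.42.0, other scalings, no filter, each library left out, thinning to 2000 UMIs, doublets out, free RNA subtracted, and other rules for osteoclasts, phagocytes and cycling cells.

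The members, the 21 lists and the markers were chosen with earlier results of these data known. Named were the osteoclast markers, for every list its most changed called gene in each direction (that direction in 3 libraries, at least 10 CPM in the higher class), the 10 largest in each direction outside the lists, the 5 largest in the other comparisons, and Il1b, Tnf, Il6, Tnfsf11, Csf1r, Nfatc1 and Irf8. Some named items are not reported here. Other members of the lists were named as examples after their values were seen.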

Additional observations from a re-analysis of the deposited data

How the results depend on the processing

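The number of genes called in the comparison with phagocytes was 3316, and it lay between 2707 and 3377 under the alternatives tried, except that 1860 were called after thinning to 2000 UMIs (631 higher and 1229 lower). Against all other cells it was 4615, with 2362 after thinning. Between osteoclasts with 4 or 5 and exactly 3 genes it was 142, with 45 by DESeq2, 217 without a filter on low counts and 17 after thinning. Between cycling and other osteoclasts it was 207, with 76 by DESeq2, 359 without a filter, 17 after thinning and 114 when cycling was defined by at least 1 of the 12 genes after thinning, an alternative added after seeing the data. Thinning leaves fewer UMIs and 732 and 753 genes to test in the last 2 comparisons. Leaving out 1 library at a time gave 2981 to 3377 calls against phagocytes, 3757 to 4484 against all other cells, 7 to 160 between 4 or 5 and exactly 3, and 181 to 336 for cycling cells. Without the replicate block the 4 counts were 3285, 4611, 122 and 165. Among genes picked by the naming rule, only Il6 then lost its call (edgeR adjusted p = 0.0558). Other list members changed too. Between 4 or 5 and exactly 3 genes, 1 proton pump gene was called higher instead of 2, and 8 proliferation genes lower instead of 9. Against phagocytes, 10 repressors were called lower instead of 9.

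The mean share of osteoclasts was 0.410%, with 0.801% when 2 of the 5 genes were asked for, 0.155% with 4 and 0.110% when the rule followed thinning; leaving out 1 library gave 0.367% to 0.464%. No named gene changed direction in an alternative where it was tested, counting only genes called in the main run or that alternative. After thinning, only 2 named genes were tested between 4 or 5 and exactly 3 genes, and 1 between cycling and other osteoclasts. Subtraction of free RNA from the sums against all other cells was not run, because those cells hold the neutrophils that set the limit. The cause of lost calls was not tested otherwise.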
